A study of Homo sapiens with 4 samples.

Results

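The m6A readers are the proteins that bind N6-methyladenosine in RNA. The transcripts of 8 of them were examined for m6A peaks of their own: YTHDF1, YTHDF2, YTHDF3, YTHDC1 and YTHDC2, which bind m6A through a YTH domain, and IGF2BP1, IGF2BP2 and IGF2BP3, which bind RNA through KH domains. A peak was taken as a reader peak when its summit lay inside 1 of 8 windows of the hg19 genome, 1 for each gene, with edges rounded to whole kb. By this rule 9 of the 9441 peaks in the control list and 11 of the 12252 peaks in the METTL3 knockdown list were reader peaks. They fell in 5 and in 6 of the 8 windows.

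The cells were H1975, an established human lung adenocarcinoma (LUAD) line, grown in high-glucose DMEM. They carried a control shRNA (NC-sh) or an shRNA against METTL3 (METTL3-sh), the methyltransferase that places m6A on mRNA, and lentiviral interference lasted 48 h. Each condition had 1 MeRIP library, made from RNA fragments pulled down with an m6A antibody, and 1 Input library of RNA without pulldown. The knockdown rests on the single shRNA below, shown because it defines the METTL3-sh condition. With 1 library per condition, its effect cannot be told apart from other differences between the libraries. The control shRNA sequence is not given in the sources used here, and the METTL3 level was not measured by the files.
METTL3 shRNA: gctgcacttcagacgaattat

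The files were the authors' peak lists of the 2 MeRIP libraries. With 1 library per condition there is no replicate spread, so no difference given here was tested. The series' design text speaks of 3 replicates per group, and it is not stated whether a library pools several cultures. Every peak is named after H1299, another LUAD line, although the labels give H1975 for both libraries. For every peak the lists hold the pileup (MeRIP reads over the summit, scaled by 1 factor per library) and the fold enrichment, which is pileup over the local expectation from the Input with a pseudocount of 1 on both. Reads at the summit were recovered from the pileup, with a list median of 169 for NC-sh and 132 for METTL3-sh. No listed peak had a fold enrichment under 6.0. Intervals of reads, of their ratios and of fold enrichment are 95% intervals of the read counts and cover counting error only. They take every read as independent. It is not known whether duplicate reads had been removed, and with duplicates the intervals would be too narrow. Those of fold enrichment take the local expectation as fixed.

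As background, YTHDF1, YTHDF2 and YTHDF3 are close cytoplasmic relatives known for roles in the translation and decay of methylated mRNA. YTHDC1 is the nuclear reader, linked to splicing and export. YTHDC2 carries an RNA helicase domain besides its YTH domain and is known for its role in meiosis. The IGF2BP proteins are oncofetal RNA-binding proteins that stabilise their target mRNAs.

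The YTHDF transcripts carried the reader peaks with the most reads in both libraries. Each had 1 broad peak, between 1323 and 1754 bp long in NC-sh and between 1420 and 1811 bp in METTL3-sh, and the summit of each broad peak was at the same base in both lists. The YTHDF genes are known for holding most of their coding sequence in a single long internal exon. No hg19 exon annotation was used, so the peaks were not placed in exons.

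YTHDF3 had the strongest of all reader peaks, on chromosome 8 from 64098702 to 64100455 in NC-sh. Its summit was covered by 9924 reads in NC-sh (95% Poisson CI 9730 to 10121) and 10027 in METTL3-sh (9832 to 10225). It ranked 18th of 9441 peaks by reads in NC-sh and 20th of 12252 in METTL3-sh. Fold enrichment was 49.2 in NC-sh (48.3 to 50.2) and 64.0 in METTL3-sh (62.7 to 65.2), above 98.0% and 99% of the peaks in the same list. The reads were thus near equal in the libraries, while the Input gave a local expectation of 65.0 for NC-sh and 56.0 for METTL3-sh, in units of pileup.

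A shorter YTHDF3 peak lay near the 3′ edge of the window, from 64122045 to 64122646 in NC-sh. It had 1054 reads in NC-sh (991 to 1120) and 1080 in METTL3-sh (1017 to 1146). Its fold enrichment was 16.5 in NC-sh (15.5 to 17.5) and 11.2 in METTL3-sh (10.6 to 11.9). Reads were again similar, and here the local expectation was the higher in METTL3-sh, 34.0 against 20.0. Within the same gene, fold enrichment was therefore higher in METTL3-sh at the broad peak and lower at the 3′ peak.

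YTHDF2 had a single peak in each list, on chromosome 1 from 29069019 to 29070569 in NC-sh. Its summit held 3227 reads in NC-sh (3117 to 3340) and 3946 in METTL3-sh (3824 to 4071), and the intervals do not overlap. Fold enrichment was 8.96 in NC-sh (8.65 to 9.27) and 9.90 in METTL3-sh (9.60 to 10.2). This peak stood among those with the most reads, above 98.1% of the NC-sh and 98.8% of the METTL3-sh peaks, but its fold enrichment exceeded only 40.4% and 50.8% of them. The local expectation here was among the highest of the lists, at 117 for NC-sh and 144 for METTL3-sh.

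The YTHDF1 transcript showed the same combination. Its broad peak, on chromosome 20 from 61833576 to 61834898 in NC-sh, had 1192 reads in NC-sh (1125 to 1262) and 1276 in METTL3-sh (1207 to 1348). Fold enrichment was 7.67 in NC-sh (7.24 to 8.12) and 8.91 in METTL3-sh (8.43 to 9.41), above 26.0% and 42.5% of the list. The pileup was 390 and 464 and the local expectation 50 and 51.2, in the same order. Ordered by reads, the broad YTHDF peaks ran from YTHDF3 to YTHDF2 to YTHDF1 in both libraries, with no overlap of their counting intervals. By fold enrichment YTHDF3 was also first, and YTHDF2 stood above YTHDF1 in both. Reads at a summit follow the abundance of the RNA as well as its methylation.

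YTHDF1 had a further narrow peak near the 3′ edge in each list, and these did not overlap. In NC-sh it ran from 61826808 to 61827045 with 190 reads (164 to 219) and a fold enrichment of 9.29 (8.04 to 10.7). In METTL3-sh it ran from 61828055 to 61828271 with 477 reads (435 to 522) and a fold enrichment of 6.46 (5.90 to 7.06). The summits were 1173 bp apart.

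**Figure D1:**
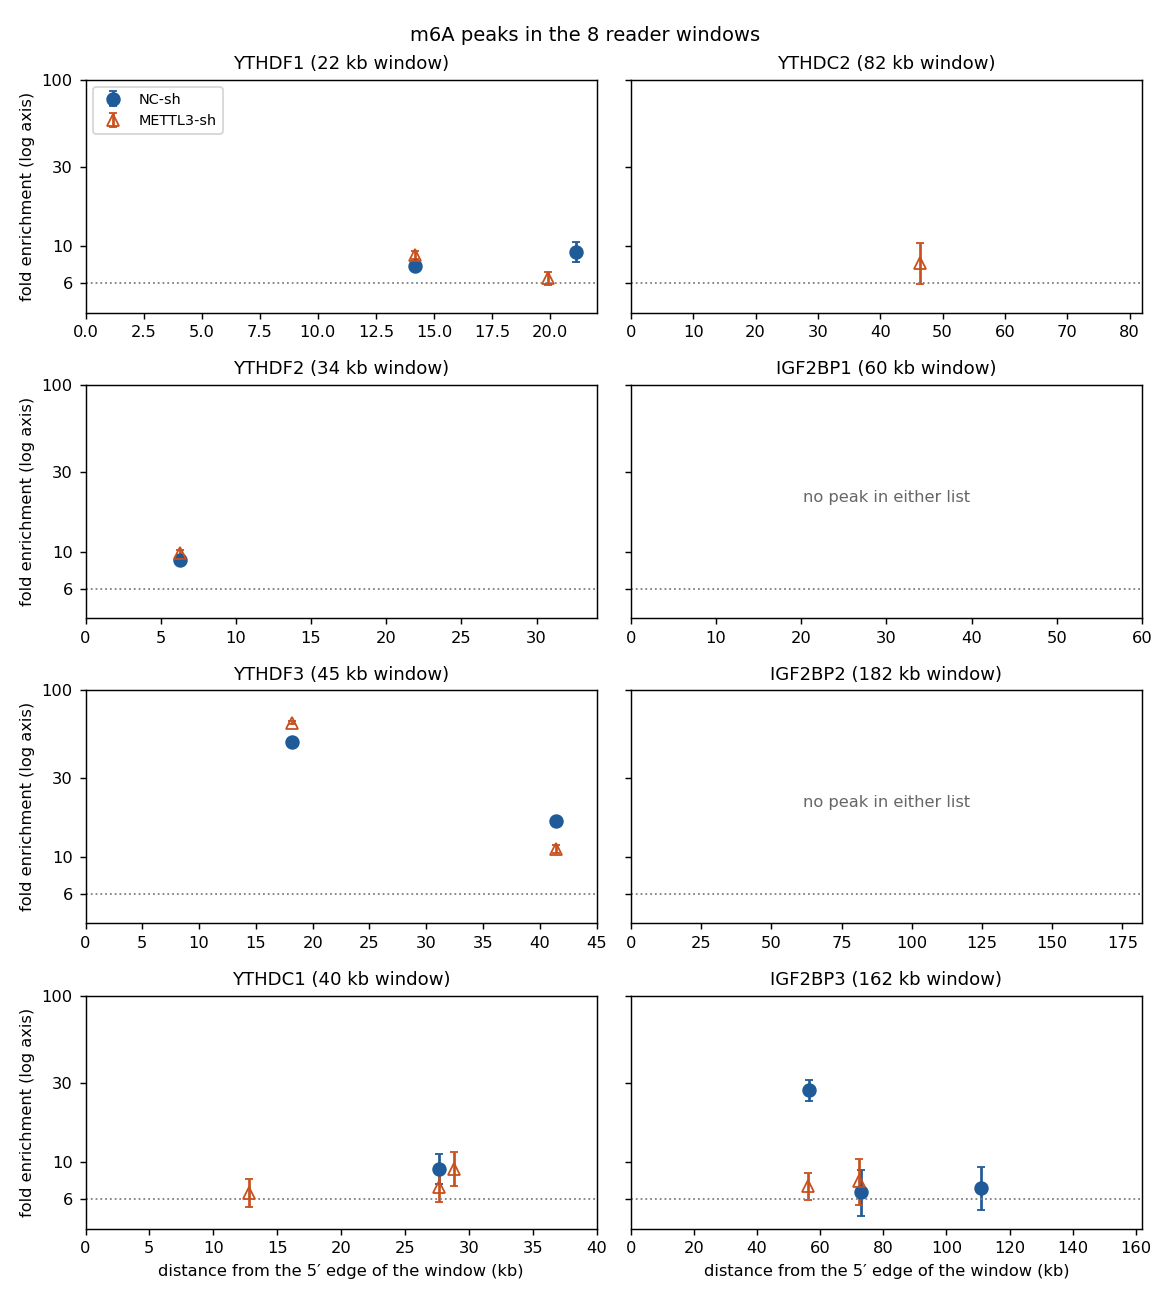
Fold enrichment (log axis) of every reader peak against the distance of its summit from the 5′ edge of the gene's window in kb, for NC-sh (filled circles) and METTL3-sh (open triangles). Bars are 95% Poisson intervals of the MeRIP reads with the expectation taken as fixed, and the dotted line is the lowest fold enrichment in the lists, 6.0. The broad YTHDF3 peak at 49.2 and 64.0 stands above all other reader peaks, and the IGF2BP1 and IGF2BP2 windows are empty.

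Peaks in the YTHDC transcripts were weak by comparison. YTHDC1, on chromosome 4, had 1 peak in NC-sh and 3 in METTL3-sh. A YTHDC1 peak present in both lists, from 69188243 to 69188494 in NC-sh, had 92 reads in NC-sh (74.2 to 113) and 99 in METTL3-sh (80.5 to 121). Its fold enrichment was 9.15 in NC-sh (7.43 to 11.2) and 7.11 in METTL3-sh (5.82 to 8.62), so both the reads and the fold enrichment overlapped in their counting intervals. The first of the other METTL3-sh peaks ran from 69187028 to 69187572 with 68 reads (52.8 to 86.2) and a fold enrichment of 9.19 (7.22 to 11.6). The second ran from 69203011 to 69203295 with 106 reads (86.8 to 128) and a fold enrichment of 6.59 (5.43 to 7.94).

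YTHDC2, on chromosome 5, had no peak in NC-sh and 1 in METTL3-sh. That peak ran from 112895321 to 112895530 and had 46 reads (33.7 to 61.4), and 20.5% of the METTL3-sh peaks had fewer. Its fold enrichment was 7.98 (5.96 to 10.5), so the lower bound was under the limit of 6.0 that the list observes. The same held for other weak reader peaks, among them peaks of YTHDC1 and IGF2BP3. The NC-sh summit nearest to the YTHDC2 peak was 71632 bp away. Peak numbers in the lists follow genome order, and missing numbers mark peaks that were called and then removed. The NC-sh peaks on either side of the YTHDC2 window were numbered consecutively, so none had been called and removed between them.

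Of the IGF2BP transcripts, IGF2BP3 alone had peaks inside its window. Its main peak lay on chromosome 7 from 23454361 to 23455073 in NC-sh and from 23454430 to 23455014 in METTL3-sh, within an IGF2BP3 window of 162 kb. It had 196 reads in NC-sh (170 to 225) and 116 in METTL3-sh (95.9 to 139), and these intervals do not overlap. Fold enrichment was 27.1 in NC-sh (23.5 to 31.2), above 91.1% of the list, and 7.20 in METTL3-sh (5.97 to 8.60), above 20.8% of the list. The local expectation differed in the opposite direction, at 1.40 for NC-sh and 5.0 for METTL3-sh. The summits lay 395 bp apart, whereas those of the other shared reader peaks lay at most 21 bp apart.

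Weaker IGF2BP3 peaks were found in 1 list each. In NC-sh they ran from 23400267 to 23400514 with 40 reads (28.6 to 54.5) and from 23437862 to 23438061 with 35 reads (24.4 to 48.7), with a fold enrichment of 7.05 and 6.63. In METTL3-sh a peak from 23438520 to 23438789 also had 35 reads, with a fold enrichment of 7.71 (5.54 to 10.5). The summit of this METTL3-sh peak was 689 bp from that of the second NC-sh peak. All 3 stood low in their lists, where 9.40%, 5.68% and 12% of peaks had fewer reads.

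IGF2BP1 and IGF2BP2, on chromosomes 17 and 3, had no peak inside their windows in either list. These windows span 60 and 182 kb. Between the nearest listed peaks on either side, 2 peak numbers were missing for IGF2BP1 in both lists, and 5 in NC-sh and 2 in METTL3-sh for IGF2BP2. A removed peak may have stood in these windows or beside them, and the lists do not tell which. Input reads were not used here, so it is not known whether these transcripts were expressed.

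Sharing of reader peaks between the lists was set beside that of all peaks. With an overlap of at least 1 bp, 6 of 9 reader peaks in NC-sh were shared (66.7%, 95% Wilson CI 35.4 to 87.9%), as were 6 of 11 in METTL3-sh (54.5%, 28.0 to 78.7%). Thus 3 NC-sh and 5 METTL3-sh reader peaks had no counterpart, where 23.8% of the whole NC-sh list and 41.4% of the METTL3-sh list had none. The shares shared over the whole lists were 76.2% for NC-sh and 58.6% for METTL3-sh. The Wilson intervals take the peaks as independent, although some lie in the same gene and each list comes from 1 library. Whether sharing differed between reader peaks and all peaks was therefore not tested. The 6 shared peaks were the 3 broad YTHDF peaks, the 3′ peak of YTHDF3, 1 YTHDC1 peak and the main IGF2BP3 peak. At 6 of the 8 unshared peaks the other list had a missing peak number, so a peak called and later removed may have stood there. Missing numbers were common throughout, at 6004 of 15445 in NC-sh and 8336 of 20588 in METTL3-sh. The same share over all unshared peaks is not given here, so the count is not particular to the reader peaks. At the YTHDC2 peak and the weak METTL3-sh peak of IGF2BP3, the other list had consecutive numbers.

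In the 6 pairs, the fold enrichment in METTL3-sh stood on both sides of that in NC-sh. The value of METTL3-sh was the lower in 3 pairs and the higher in 3, where 41.1% of all 6863 pairs were lower. On the log2 scale, METTL3-sh over NC-sh came to 0.38 for the broad YTHDF3 peak, 0.22 for YTHDF1 and 0.14 for YTHDF2. It was -0.36 for YTHDC1, -0.55 for the 3′ peak of YTHDF3 and -1.92 for IGF2BP3. The median over the 6 pairs was -0.11, beside 0.13 over all pairs, whose quartiles were -0.27 and 0.54. Of the 6, only IGF2BP3 differed by at least 1.5-fold. It was 3.77-fold lower in METTL3-sh, where 12.8% of all pairs were at least 1.5-fold lower and 22.9% at least 1.5-fold higher. Its summits were 395 bp apart, beside a median of 17 bp over all pairs, so the values were read at different bases, and with pairs limited to summits within 100 bp, 0 reader pairs passed 1.5-fold. A lower ratio than that of IGF2BP3 was found in 19 of the 6863 pairs.

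**Figure D2:**
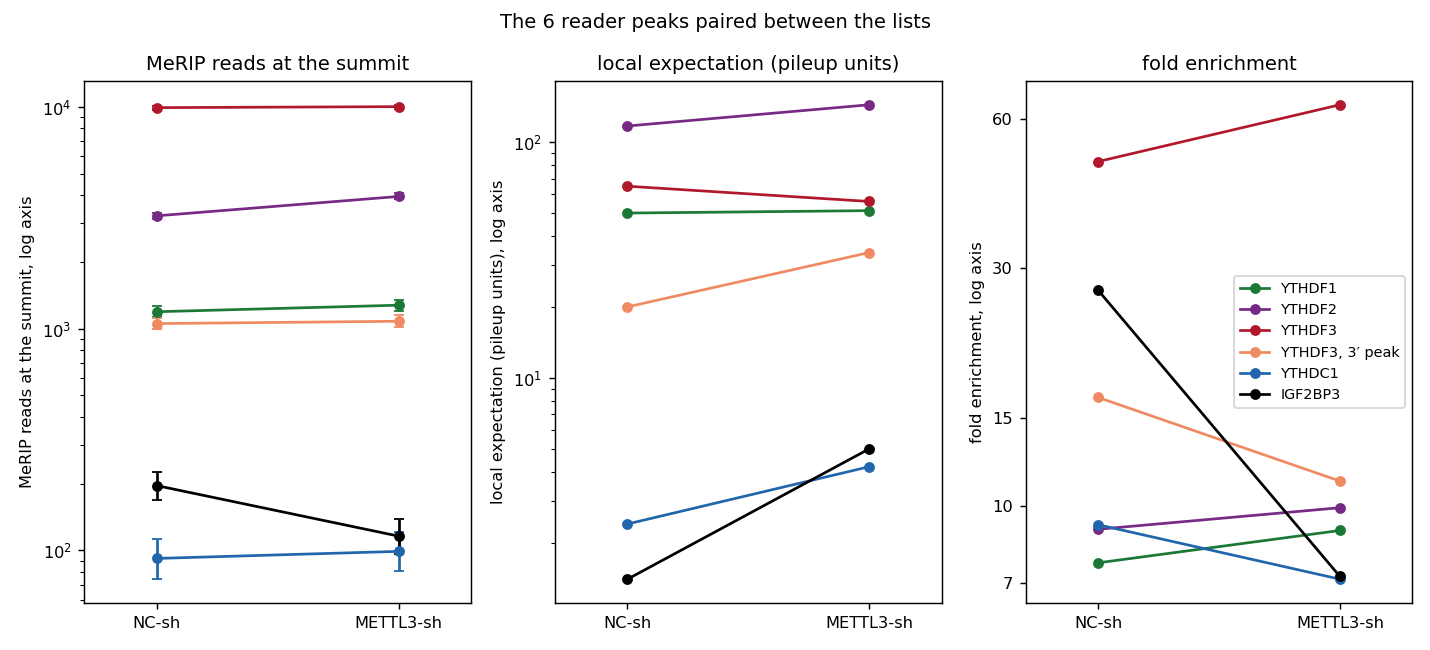
MeRIP reads at the summit with 95% Poisson intervals (left), local expectation in units of pileup (middle) and fold enrichment (right) of the 6 paired reader peaks in NC-sh and METTL3-sh, all on log axes with 1 line per peak. The lines of reads run close to level for 5 peaks, with 92 and 99 for YTHDC1 and 9924 and 10027 for the broad YTHDF3 peak, whereas IGF2BP3 has 196 in NC-sh and 116 in METTL3-sh.

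Reads at the summit and local expectation were then compared separately. In reads, 5 of the 6 pairs were higher in METTL3-sh and 1 was lower, where 36.7% of all 6863 pairs were lower. The 5 higher ratios were 1.01 for the broad YTHDF3 peak (95% exact CI 0.983 to 1.04), 1.02 for its 3′ peak (0.940 to 1.12), 1.07 for YTHDF1 (0.988 to 1.16), 1.08 for YTHDC1 (0.802 to 1.45) and 1.22 for YTHDF2 (1.17 to 1.28). Of these, only the interval of YTHDF2 lay above 1, and 64.9% of all pairs had a lower ratio of reads than YTHDF2. For IGF2BP3 the ratio of reads was 0.592 (0.466 to 0.748). The median log2 ratio of reads was 0.07 over the reader pairs and 0.13 over all pairs, and the depths of the libraries, which enter it, are not known.

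METTL3-sh had the higher local expectation in 5 of the 6 reader pairs and in 4269 of all 6863. Divided by the NC-sh value, it was 0.862 at the broad YTHDF3 peak, 1.02 at YTHDF1, 1.23 at YTHDF2, 1.70 at the 3′ peak of YTHDF3, 1.75 at YTHDC1 and 3.57 at IGF2BP3. As this expectation was derived from the pileup and the fold enrichment, where pileup is near equal, a lower fold enrichment gives a higher expectation by arithmetic. Fold enrichment takes pileup and expectation each with 1 added. On that scale the log2 ratio for IGF2BP3 was -0.59 for pileup and 1.32 for expectation, and both lowered the fold enrichment. For pileup and expectation it was 0.17 and -0.21 at the broad YTHDF3 peak and 0.19 and 0.74 at its 3′ peak. The values were 0.25 and 0.03 at YTHDF1, 0.44 and 0.30 at YTHDF2, and 0.25 and 0.61 at YTHDC1. Without the added 1, the IGF2BP3 log2 ratio was -0.76 for reads and 1.84 for expectation. The part of Input depth and of RNA abundance in these values was not tested.

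**Figure D3:**
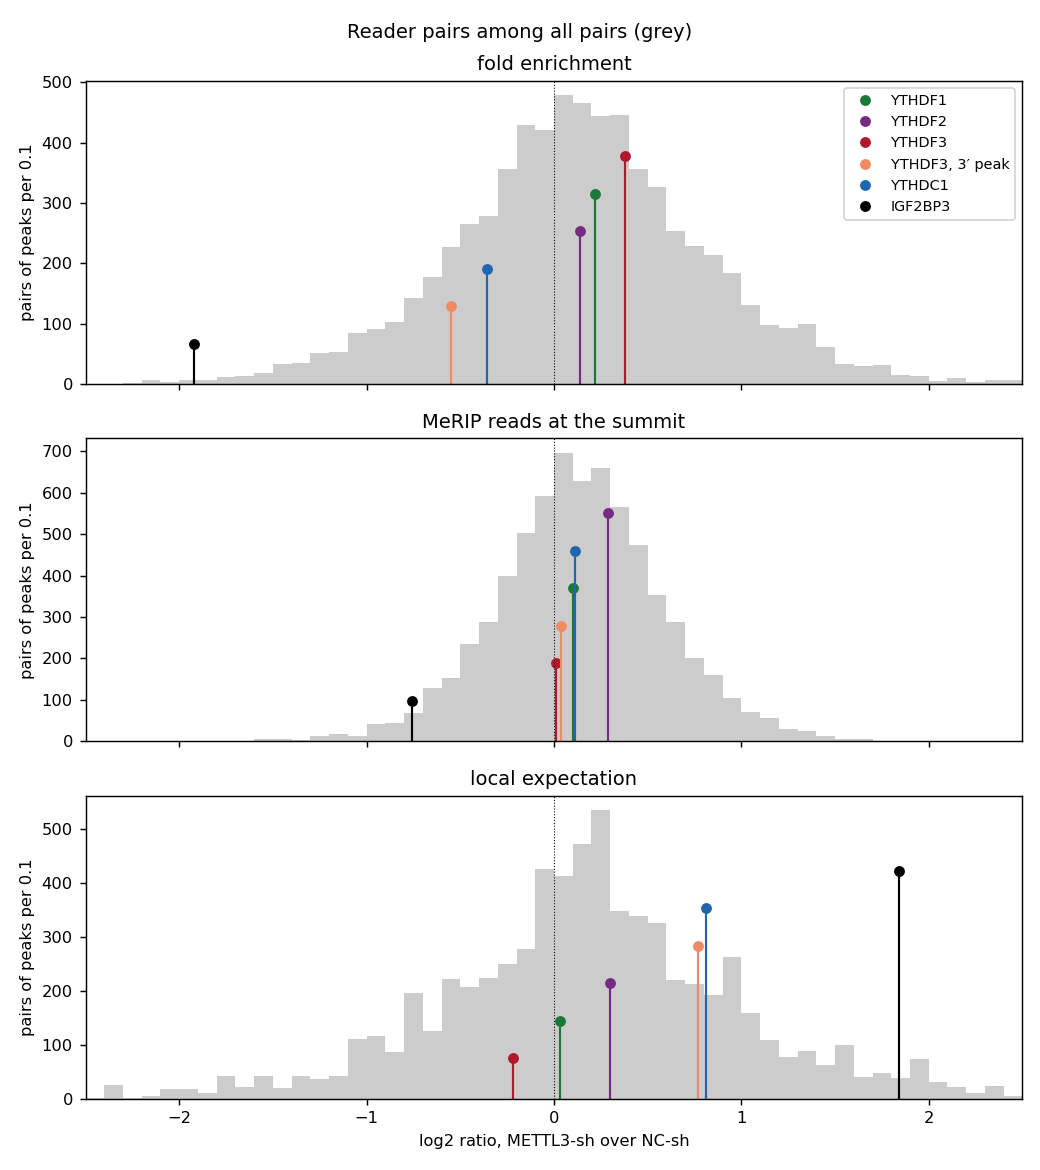
Log2 ratios of METTL3-sh over NC-sh for fold enrichment (top), MeRIP reads at the summit (middle) and local expectation (bottom), with the number of all pairs per 0.1 as grey bars and the 6 reader pairs as coloured lines, whose heights carry no value. In fold enrichment the 5 pairs other than IGF2BP3 lie from -0.55 to 0.38. Of these, YTHDC1 and the 3′ peak of YTHDF3 lie below the lower quartile of all pairs, -0.27. IGF2BP3 lies in the lower tail of fold enrichment at -1.92 and in the upper tail of expectation at 1.84.

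Along the genes, reader peaks were spread over the windows. Only 2 of 9 in NC-sh and 2 of 11 in METTL3-sh had their summit within 5 kb of the 3′ edge, and these belonged to YTHDF1 and YTHDF3. None in either list was within 5 kb of the 5′ edge. The broad peaks had their summits 6.29 kb from the 5′ edge in YTHDF2, 14.2 kb in YTHDF1 and 18.2 kb in YTHDF3. The main peak of IGF2BP3 was 56.5 kb from the 5′ edge in NC-sh and 106 kb from the 3′ edge. As introns are included in these distances, they do not give positions on the mRNA. Peaks hold no strand, and RefSeq lists pseudogenes of YTHDF1, YTHDF2, YTHDF3, IGF2BP2 and IGF2BP3, with which reads may have been shared. In RefSeq, 3 genes overlap IGF2BP3, namely the protein-coding MALSU1, which encodes a mitochondrial ribosome assembly factor, the snoRNA gene SNORD65C and the pseudogene RNU7-143P. The peaks of the IGF2BP3 window were placed by position alone, and whether any came from these genes was not tested. No gene overlaps the YTHDF or YTHDC genes in that table, and 2 and 3 non-coding genes or pseudogenes overlap IGF2BP1 and IGF2BP2.

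At the edges of the windows, the summit nearest to an edge from inside was that of the narrow NC-sh peak of YTHDF1, 915 bp from the 3′ edge. From outside it was a METTL3-sh peak 316 bp beyond the 5′ edge of YTHDF3, with 160 reads and a fold enrichment of 7.40. A peak 556 bp beyond the 5′ edge of YTHDF1 in NC-sh had 80 reads and a fold enrichment of 9.0. Its counterpart in METTL3-sh lay 564 bp beyond, with 72 reads and a fold enrichment of 8.77. By the rule these were not reader peaks.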

How the data were processed

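MeRIP-seq peak lists of 1 NC-sh and 1 METTL3-sh library of H1975 cells were analysed. Both Input libraries were not analysed here. The submitters' processing notes name bcl2fastq, TopHat2 2.0.13, MACS2 2.1.0.20151222 and hg19, with no settings. Conditions were taken from the sample labels. The deposited pileup is a signal scaled per library. The fold enrichment that the authors deposited is the ratio (pileup + 1) over (local expectation + 1). Values of −log10 p and −log10 q were deposited as called. Missing peak numbers (6004 and 8336) and a lowest fold enrichment of 6.0 show that peaks had been removed before deposit. Library totals are unknown, so depth is given as reads at the summit.

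Reads were computed as pileup over its step (0.327 in NC-sh, 0.364 in METTL3-sh), and the local expectation from pileup and fold enrichment. A Poisson tail on the pileup, rounded down, and the local expectation lay within 0.02 of the deposited −log10 p for 89.3% and 86.3% of peaks. The recovered reads did not enter this check. Pairs are peaks overlapping only each other by at least 1 bp, found over the whole lists. All 8 readers are named with all their peaks. The members were chosen with earlier results of these data known. Transcription direction came from RefSeq's promoter table for 6 genes and from textbook knowledge for YTHDF3 and IGF2BP1. RefSeq's GRCh38.p14 gene table served for names only, and no position was converted. Other genes of the m6A pathway were not analysed here, as no hg19 annotation was used. Overlap, pairing and read recovery were run on a simulated list, a subset of the NC-sh peaks with unchanged coordinates and a set step. Correct pairing was thus built in. Shifted edges or summits were not simulated, so this check does not cover pairs such as that of IGF2BP3. Python 3.11.15, numpy 2.4.6, pandas 2.3.3, scipy 1.17.1 and matplotlib 3.10.9 were used.

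The alternatives were assignment by overlap, windows widened by 5 kb, filters on −log10 q and fold enrichment, lists of equal size, stricter overlaps, other measures in place of fold enrichment, a 2-fold limit and the peak midpoint.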

Additional observations from a re-analysis of the deposited data

How the results depend on the processing

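Of 44 values recomputed under an alternative, 32 stayed within 1.5 times the count or within the interval or spread of the value given above, and 12 moved beyond it. With a fold enrichment of at least 12, 3 NC-sh and 1 METTL3-sh reader peaks remained, and 33.3% and 100% of these were shared. With −log10 q at or above 36.6, the median of both lists, 5 reader peaks remained in METTL3-sh, of which 80.0% were shared. When reads at the summit or pileup stood in for fold enrichment, 1 reader pair was lower in METTL3-sh in place of 3. Of all pairs, 36.7% were lower by reads, 24.2% by pileup and 30.5% by −log10 q. With summits within 100 bp the IGF2BP3 peaks were no longer a pair, 0 reader pairs passed 1.5-fold, and the median log2 ratio of the remaining 5 was 0.14. The filters leave fewer peaks by construction, and for the remaining changes the cause was not tested. The median over the 6 reader pairs was above 0 by reads (0.07), pileup (0.22) and −log10 q (0.08), in place of -0.11. These changes of sign, and that to 0.14 with summits within 100 bp, were counted among the 32 that stayed. No paired analysis was possible because there was a single MeRIP library on each side. With at most 11 reader peaks in a list, counting error is wide for shares, and peaks of 35 to 46 reads are the least certain.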

Other observations

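Peaks beyond the window edges belong to none of the comparisons above. Downstream of YTHDF3, 4.16 kb beyond its 3′ edge in NC-sh and 4.19 kb in METTL3-sh, a peak was present in both lists, with 57 and 44 reads. Its fold enrichment was 13 and 6.54. Beyond the 3′ edge of IGF2BP2, which had no peak inside its window, METTL3-sh had 2 peaks that overlapped none in NC-sh. They lay 5.06 kb and 5.72 kb from the edge, the nearer with 59 reads at a fold enrichment of 7.48 and the farther with 126 reads at 15.6. SENP2, which encodes a SUMO protease, is the next gene on that side in RefSeq, and the peaks were assigned to no gene.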
